A study of Mus musculus with 6 samples.

Results

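The acinar cell of the pancreas is held in its state by a small set of transcription factors, and 8 of them were followed here in whole pancreas of mice lacking Rkip-1. The factors were Ptf1a, Rbpjl, Bhlha15 (Mist1), Nr5a2, Gata4, Gata6, Foxa2 and Xbp1, chosen by their role, with earlier results of these data known. Every probe set that the platform annotation gives to exactly 1 gene among these was used, which came to 19 probe sets for the 8 genes, out of 18193 genes on the array with such a probe set. The knockout group (KO) held 3 samples from Rkip-1 KO mice and the wild-type group (WT) held 3 from WT mice. The mice were 8 weeks old, shared a C57BL/6 background and came out of a single colony, and total RNA of whole pancreas from each sample was read on 1 Affymetrix array. The labels do not say which part of the gene was removed, which sex the mice had or whether arrays were run in batches, and the number of mice behind each sample is not stated beyond the word biological replicate. The p-values therefore set each difference against the spread between arrays of the same group, among these 6 arrays.

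Ptf1a is a basic helix-loop-helix protein that joins an E protein, such as the products of Tcf3 and Tcf12, and another subunit to form the PTF1 complex. In the embryonic pancreas that other subunit is RBPJ, and in mature acinar cells it is RBPJL, encoded by Rbpjl, itself a gene that PTF1 switches on. PTF1 and the nuclear receptor Nr5a2 drive the digestive enzyme genes, Bhlha15 builds the secretory apparatus and orders the granules, and Gata4, Gata6 and Foxa2 act from pancreas formation onwards. Xbp1 is made active by splicing of its mRNA by the kinase and nuclease IRE1, the product of Ern1, and raises the folding and transport capacity of the endoplasmic reticulum (ER).

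PTF1 sites carry an E-box, written CANNTG, beside the core that RBPJ and RBPJL bind, written TTCCCA here. Xbp1 and its relative Atf6 act at the ER stress element (ERSE), which is CCAAT and CCACG with 9 bases between them. Windows of 300 bases, from 250 before to 50 after each RefSeq start in mouse build GRCm38.p6, were searched for these letters on both strands. They are shown as background to these pairs of factor and target, and no difference below was related to a match. The first 2 windows, of Rbpjl (chr2:164402944-164403243, plus strand) and of Cel, the carboxyl ester lipase (chr2:28563354-28563653, minus strand), have E-boxes and RBPJ cores in capitals. The other 2, of Syvn1 (chr19:6046326-6046625, plus strand) and Hspa5 (chr2:34771840-34772139, plus strand), have the ERSE in capitals.
Rbpjl: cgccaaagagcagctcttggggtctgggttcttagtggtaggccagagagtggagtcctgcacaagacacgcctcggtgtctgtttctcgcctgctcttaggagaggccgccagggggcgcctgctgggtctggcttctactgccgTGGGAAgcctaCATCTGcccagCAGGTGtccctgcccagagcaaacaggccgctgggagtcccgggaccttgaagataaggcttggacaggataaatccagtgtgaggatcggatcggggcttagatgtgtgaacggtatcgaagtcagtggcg
Cel: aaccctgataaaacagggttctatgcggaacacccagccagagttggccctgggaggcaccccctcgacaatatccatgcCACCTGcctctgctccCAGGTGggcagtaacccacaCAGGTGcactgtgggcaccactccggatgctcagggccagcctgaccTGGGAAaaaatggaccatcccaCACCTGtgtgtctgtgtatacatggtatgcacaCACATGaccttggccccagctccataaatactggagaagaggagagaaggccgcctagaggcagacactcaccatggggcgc
Syvn1: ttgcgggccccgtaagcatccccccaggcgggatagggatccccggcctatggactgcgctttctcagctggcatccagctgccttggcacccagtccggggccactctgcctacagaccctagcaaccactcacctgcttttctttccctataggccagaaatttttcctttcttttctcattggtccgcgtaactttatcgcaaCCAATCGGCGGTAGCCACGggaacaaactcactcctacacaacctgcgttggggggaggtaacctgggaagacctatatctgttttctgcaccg
Hspa5: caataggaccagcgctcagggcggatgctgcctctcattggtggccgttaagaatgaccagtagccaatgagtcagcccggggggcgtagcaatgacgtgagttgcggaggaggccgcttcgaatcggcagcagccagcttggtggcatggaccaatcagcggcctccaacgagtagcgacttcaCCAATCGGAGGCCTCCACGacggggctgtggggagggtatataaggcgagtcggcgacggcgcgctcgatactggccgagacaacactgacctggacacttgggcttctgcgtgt
In the Rbpjl window the RBPJ core spans bases 147 to 152, and the E-boxes start at bases 158 and 169, counted from the first base of the window. An E-box within 30 bases of an RBPJ core, the 2 not overlapping, was found in 8 of 22 windows of digestive enzyme and granule genes (36.4%), against 6.97% of all 32851 windows. The 22 windows include Cela3a and Prss1, which are not among the genes measured below. An ERSE was found in 6 of 34 windows of Xbp1-linked genes (17.6%), against 0.119% of all windows. Of the 8 factors, 6 had a window, with 9 windows in all. An E-box stood in 6 of these 9 (66.7%), against 72.3% of all windows, and an ERSE in 0 of 9. The E-box near an RBPJ core stood in 1 of 9 (11.1%), that of Rbpjl, against 6.97% of all windows. A match describes the letters in the window only.

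The values are log2 units of RMA signal, in which a step of 1 is a doubling. Column medians lay between 2.97 and 3.02 and the upper quartile of all values was 4.54, so that values near 3 are no brighter than much of the array, and no call of detection was available. Pebp1, the gene of Rkip-1, averaged 6.03 ± 0.41 in KO and 9.88 ± 0.12 in WT (SD, n = 3 each), with an adjusted p of 5.05e-05 by limma. The acinar markers Cpa1, Cela1, Ctrb1 and Cel lay between 14.26 and 14.39 on all 6 arrays, at the bright end of the values. Differences are KO minus WT, tested with limma and adjusted over all 45037 probe sets, with a threshold of 0.05 on the adjusted p. Xist, which marks arrays of females, was high in KO replicates 2 and 3 and WT replicate 3, at 9.09 to 9.79, and at most 4.43 in the other arrays.

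By limma 0 of the 19 probe sets of the acinar factors passed, where 44 of all probe sets (0.0977%) did. At an unadjusted p under 0.05 there were 6 of 19, against 8.68% of all probe sets. These were the probe set of Ptf1a and 2 of Gata6, lower in KO, and 3 of Xbp1, higher in KO. Since 5 of these 6 share a gene with another, they stand for 3 genes. The groups did not overlap at 2 of 19, both of Xbp1, against 13.5% of all probe sets. By the brightest probe set of each gene, 7 of the 8 factors were lower in KO and Xbp1 was higher. That count was 5 of 8 with Xist as a covariate, without KO replicate 2 and without KO replicate 3, and 6 or 7 of 8 under every other alternative run. Bright probe sets leaned the same way as a whole, and 61.7% of the 7141 genes above the upper quartile were lower in KO. The median difference was -0.13 over the 8 factors, -0.04 over genes above the upper quartile and -0.00 over all genes. Over the alternatives the median of the 8 factors ran from -0.18 without WT replicate 3 to -0.07 with a second quantile normalization.

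**Figure D1:**
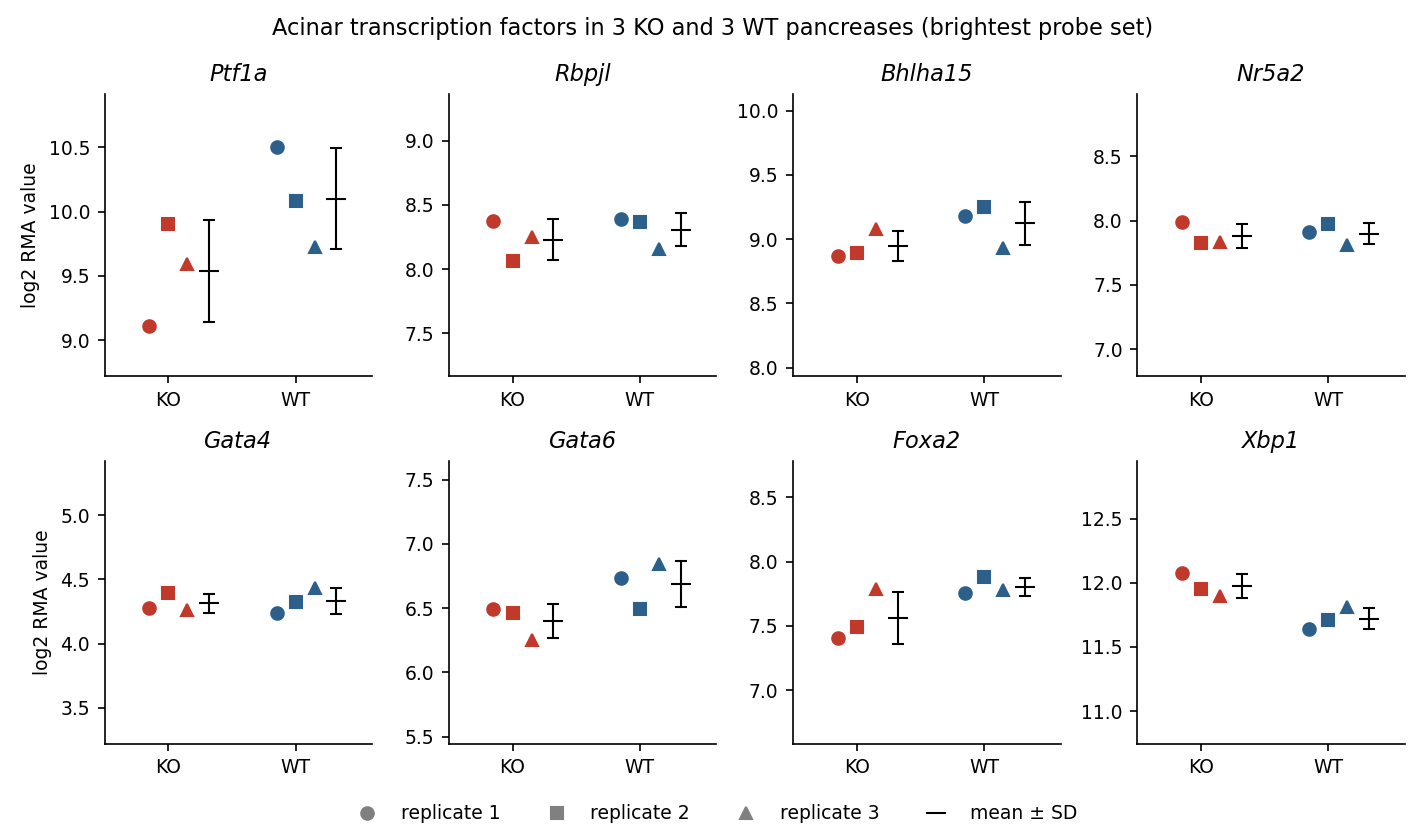
Log2 RMA value of the brightest probe set of each acinar factor on each array, KO on the left and WT on the right of each panel, with the mean and SD beside the 3 arrays. Every panel spans the same height in log2 units. Ptf1a spreads most, from 9.11 to 10.50, and Xbp1 is the 1 factor whose KO and WT points do not overlap.

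Ptf1a, which defines acinar identity, had the largest difference of the 8 and also the widest spread. It measured 9.11, 9.91 and 9.59 in KO replicates 1, 2 and 3, against 10.50, 10.08 and 9.72 in WT replicates 1, 2 and 3. The lowest value was KO replicate 1 and the highest WT replicate 1, while KO replicate 2 exceeded WT replicate 3. The means were 9.54 ± 0.40 in KO and 10.10 ± 0.39 in WT, which differ by -0.56 with a 95% interval of -1.07 to -0.06. As a ratio of KO to WT this was 0.676 (0.477 to 0.957), with an unadjusted p of 0.0312 and an adjusted p of 0.519. It did not pass. Without KO replicate 1 the difference was -0.35, and without WT replicate 1 it was -0.37. Among the arrays with high Xist, Ptf1a averaged 9.75 in 2 KO arrays and measured 9.72 in the 1 WT array, that is 0.03 apart. Among those with low Xist it measured 9.11 in 1 KO array and averaged 10.29 in 2 WT arrays, that is -1.18 for KO minus WT. These classes hold too few arrays for a test.

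Rbpjl, whose product completes PTF1 in mature acini, measured 8.38, 8.06 and 8.25 in KO replicates 1 to 3 and 8.39, 8.37 and 8.16 in WT replicates 1 to 3. The groups overlapped throughout, and KO replicate 1 lay within 0.02 of WT replicate 1. The difference was -0.08 (-0.33 to 0.17, adjusted p 0.894), so that the interval runs from 0.797 to 1.13 times the WT level. A second Rbpjl probe set lay between 2.83 and 3.47 on all arrays, near the column medians, and differed by -0.22 (-0.53 to 0.09). The E proteins that complete the complex were close between genotypes. Tcf12 averaged 6.86 ± 0.11 in KO and 6.96 ± 0.07 in WT, and Tcf3 3.94 ± 0.28 in KO and 3.95 ± 0.17 in WT. Rbpj, which fills that place in the embryo, measured 5.71, 5.66 and 5.82 in KO and 5.81, 6.23 and 5.96 in WT. Its difference of -0.27 (-0.53 to -0.00) had an unadjusted p of 0.0484 and an adjusted p of 0.574.

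Nr5a2, the nuclear receptor that works with PTF1 at enzyme genes, was read by 4 probe sets that did not give the same picture. Its brightest measured 7.98, 7.82 and 7.83 in KO against 7.91, 7.97 and 7.81 in WT, which differ by -0.02 (-0.23 to 0.19, adjusted p 0.973). A probe set of like brightness, 1420410_at, measured 7.52, 7.19 and 6.86 in KO against 7.57, 7.55 and 7.41 in WT. There KO replicate 1 lay among the WT arrays and the other KO arrays below them, and the difference was -0.32 (-0.66 to 0.02, adjusted p 0.599). It was -0.49 without KO replicate 1 and -0.16 without KO replicate 3. Another, 1449706_s_at, differed by -0.21 (-0.45 to 0.03), and the dim 1449707_at, at 2.24 to 2.73, by 0.16. With a second quantile normalization the brightest probe set differed by 0.049, so that its direction is not settled. Nr0b2 (SHP), which represses Nr5a2, measured 6.70, 6.14 and 5.97 in KO and 5.98, 5.75 and 5.83 in WT. The KO values lay mostly above the WT ones, with KO replicate 3 just under WT replicate 1, and the difference of 0.41 (0.03 to 0.80) did not pass (adjusted p 0.536).

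Bhlha15, which matures the secretory apparatus of acinar cells, measured 8.87, 8.89 and 9.08 in KO against 9.18, 9.25 and 8.93 in WT. WT replicate 3 lay among the KO arrays. The difference was -0.18 (-0.43 to 0.07, adjusted p 0.709), and the interval covers 0.745 to 1.05 times the WT level. Its second probe set stayed between 3.06 and 3.16 on every array, near the column medians, and tells nothing of the level. Of 6 genes reported downstream of Bhlha15, 3 were higher and 3 lower, 0 passed by limma and 0 had an unadjusted p under 0.05. Over all genes 0.132% passed, and 4.55% were higher and 5.58% lower at that unadjusted p, so that 0 of 6 tells little. The median difference of the 6 was -0.01. The sign of that median was not stable, at 0.06 with a second quantile normalization and from -0.07 to 0.04 with an array left out. Rab3d, a GTPase of the zymogen granule membrane, averaged 9.61 ± 0.14 in KO and 9.75 ± 0.08 in WT. Ccpg1, a receptor for the degradation of ER by autophagy, differed by -0.11. The calcium and manganese pump gene Atp2c2 differed by 0.10 and the gap junction gene Gjb1 by 0.08.

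**Figure D2:**
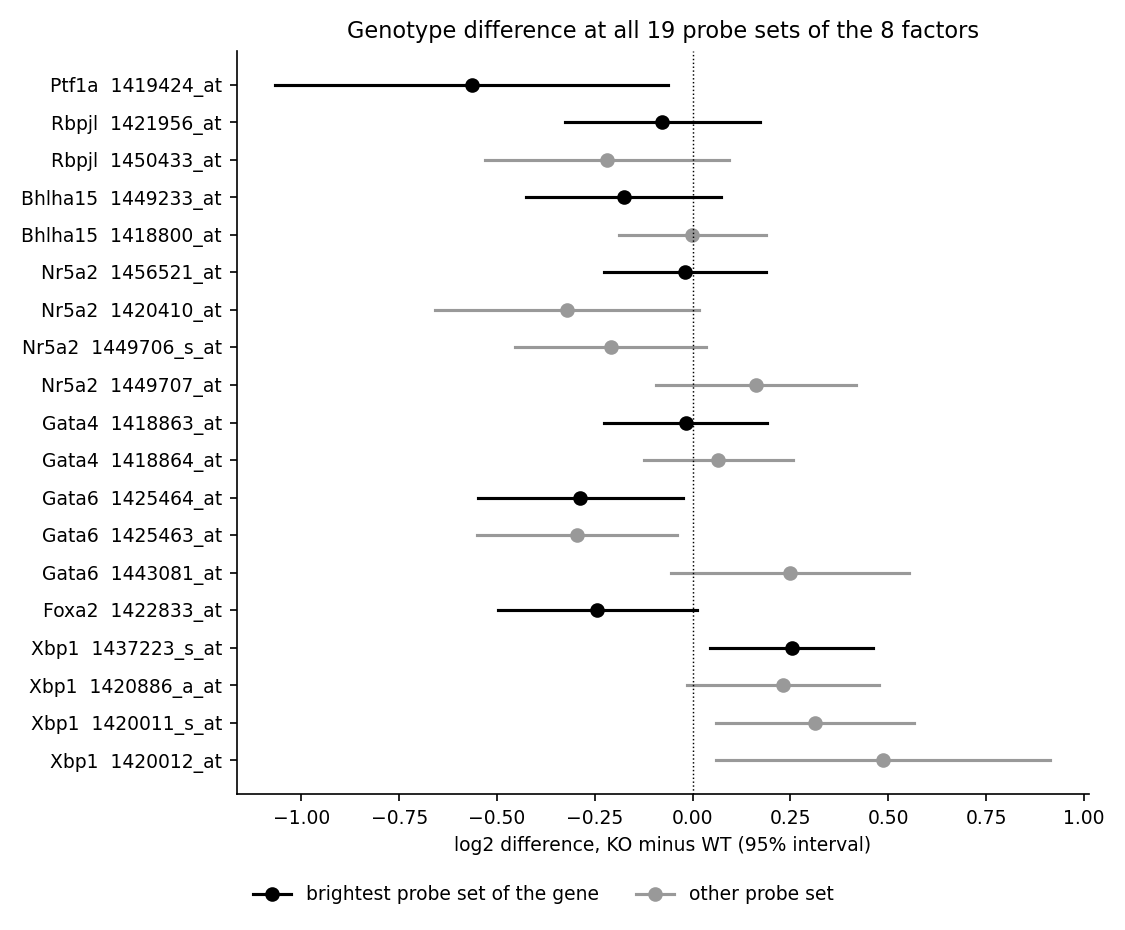
Log2 difference between KO and WT with its 95% interval at each of the 19 probe sets of the acinar factors, the brightest of each gene in black and the others in grey. The 4 Xbp1 probe sets all lie above 0, from 0.23 to 0.49, and Ptf1a lies lowest at -0.56.

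Gata6, a zinc finger factor needed for acinar differentiation and for keeping it, measured 6.50, 6.46 and 6.25 in KO against 6.73, 6.49 and 6.84 in WT at its brightest probe set. KO replicate 1 and WT replicate 2 were nearly equal and the other arrays were ordered by genotype. The difference was -0.29 (-0.55 to -0.03, unadjusted p 0.0345, adjusted p 0.535). A second probe set, 1425463_at, gave 4.52, 4.24 and 4.18 in KO against 4.73, 4.51 and 4.59 in WT, that is -0.30 (-0.55 to -0.04). The dimmest, 1443081_at, is dimmer than the column medians on every array, at 2.30 to 2.92, and differed by 0.25. Gata4, its close relative, measured 4.28, 4.40 and 4.26 in KO against 4.24, 4.32 and 4.43 in WT, with full overlap. Its difference was -0.02 (-0.23 to 0.19, adjusted p 0.976), at a level below the upper quartile of the array, where a difference can be understated. Its other probe set, at 3.05 to 3.18, differed by 0.07.

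Zfpm1 (FOG1), a cofactor that binds GATA proteins, had the lowest p among the partners. It measured 5.73, 5.87 and 6.27 in KO against 6.76, 6.55 and 6.16 in WT. KO replicate 3 lay above WT replicate 3, and the difference of -0.53 (-0.92 to -0.14) had an unadjusted p of 0.0127 and an adjusted p of 0.424. Of the other GATA family genes, Gata1 measured 2.44 to 2.60 in KO and 2.12 to 2.25 in WT. Both groups lie under the column medians, so that its difference of 0.31 (unadjusted p 0.00623, adjusted p 0.367) has no reading as a level.

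Foxa2, a forkhead factor that opens chromatin in endoderm and is shared with islets and ducts, measured 7.40, 7.49 and 7.79 in KO against 7.75, 7.88 and 7.78 in WT. KO replicates 1 and 2 lay below all WT arrays and KO replicate 3 among them. The difference was -0.24 (-0.50 to 0.01, adjusted p 0.596), and without KO replicate 1 it was -0.16. Its relative Foxa3 averaged 6.82 ± 0.22 in KO and 6.85 ± 0.21 in WT. Pdx1, which acinar cells hold at a low level beside the beta cells, measured 5.25, 4.95 and 5.20 in KO against 4.95, 4.71 and 4.31 in WT. Its difference was 0.48 (0.12 to 0.83, adjusted p 0.426).

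Over both lists, 17 partners of the factors were measured, 5 higher and 12 lower, and 13 family members, 3 higher and 10 lower, with 2 genes on both lists. By limma 0 passed in each list, where 0.132% of all genes by their brightest probe set did. At an unadjusted p under 0.05 there were 2 higher and 2 lower partners, and 1 higher and 1 lower family member, against 4.55% higher and 5.58% lower of all genes. The median differences were -0.03 and -0.08.

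Xbp1 was the factor with higher values in KO, and its probe sets ran the same way. The brightest, 1437223_s_at, measured 12.08, 11.95 and 11.90 in KO against 11.64, 11.71 and 11.81 in WT. All KO arrays lay above all WT arrays, by 0.09 at the nearest. The means were 11.97 ± 0.09 in KO and 11.72 ± 0.08 in WT, that is 0.25 (0.05 to 0.46), or 1.19 times the WT level (1.03 to 1.38). The unadjusted p was 0.022 and the adjusted p 0.484, so that it did not pass.

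The other Xbp1 probe sets differed by 0.31 (0.06 to 0.57) at 1420011_s_at, by 0.49 (0.06 to 0.91) at 1420012_at and by 0.23 (-0.01 to 0.48) at 1420886_a_at. The first of these gave 10.50, 10.33 and 10.16 in KO against 9.90, 9.99 and 10.15 in WT, where the nearest KO and WT arrays were almost equal. Within the arrays with high Xist the brightest probe set averaged 11.92 in KO and measured 11.81 in WT, and within those with low Xist it measured 12.08 in KO and averaged 11.68 in WT. The 4 probe sets share a transcript and are not independent, and they do not separate spliced from unspliced Xbp1 mRNA here. Ern1, whose product splices it, averaged 7.57 ± 0.22 in KO and 7.44 ± 0.05 in WT, and Atf6, the parallel ER sensor, 7.49 ± 0.17 in KO and 7.61 ± 0.08 in WT.

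The genes reported downstream of spliced Xbp1 did not share its direction. Of 34 measured, 30 were lower and 4 higher in KO, with a median difference of -0.12. The mean log2 level of the list was 9.59, 9.51 and 9.73 in KO replicates 1 to 3. In WT replicates 1 to 3 it was 9.92, 9.79 and 9.60, so that the groups overlapped. The genes of a list share arrays, and their signs are not independent counts. By limma 0 passed, and 4 had an unadjusted p under 0.05, all lower (11.8% of the 34), against 5.58% of all genes. In 5 of the 34 every KO array lay below every WT array, against 7.56% of all genes. The list lies among the 7141 genes above the upper quartile, of which 691 were lower at an unadjusted p under 0.05. In 903 of the 7141 every KO array lay below every WT array. With a second quantile normalization 26 of 34 were lower and the median was -0.07. With an array left out in turn, the median ran from -0.20 without WT replicate 3 to -0.07 without WT replicate 1. The number lower ran from 25 of 34 without KO replicate 2 to 31 of 34 without KO replicate 3.

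Syvn1, the ubiquitin ligase that clears misfolded ER proteins, had the largest difference among the Xbp1-linked genes. It measured 7.03, 7.19 and 7.75 in KO against 8.78, 8.31 and 7.36 in WT. KO replicate 3 lay above WT replicate 3, and the difference was -0.83 (-1.53 to -0.12, adjusted p 0.505). Herpud1, which serves the same clearance, measured 8.94, 9.20 and 8.80 in KO against 9.89, 9.77 and 9.28 in WT. Its groups did not overlap, and the difference was -0.67 (-1.03 to -0.30, adjusted p 0.278). The COPII coat genes Sec24d and Sec23b, which carry cargo out of the ER, differed by -0.51 (adjusted p 0.35) and -0.39 (adjusted p 0.454), again with no overlap. Hspa5 (BiP), the main ER chaperone, averaged 12.17 ± 0.32 in KO and 12.54 ± 0.29 in WT. Dnajb9, a chaperone and well-known Xbp1 target, differed the other way by 0.29, with 9.02, 8.72 and 8.08 in KO against 8.89, 8.21 and 7.87 in WT and an interval of -0.33 to 0.90. Dnajb9 and Hspa5 were named after their values were seen.

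**Figure D3:**
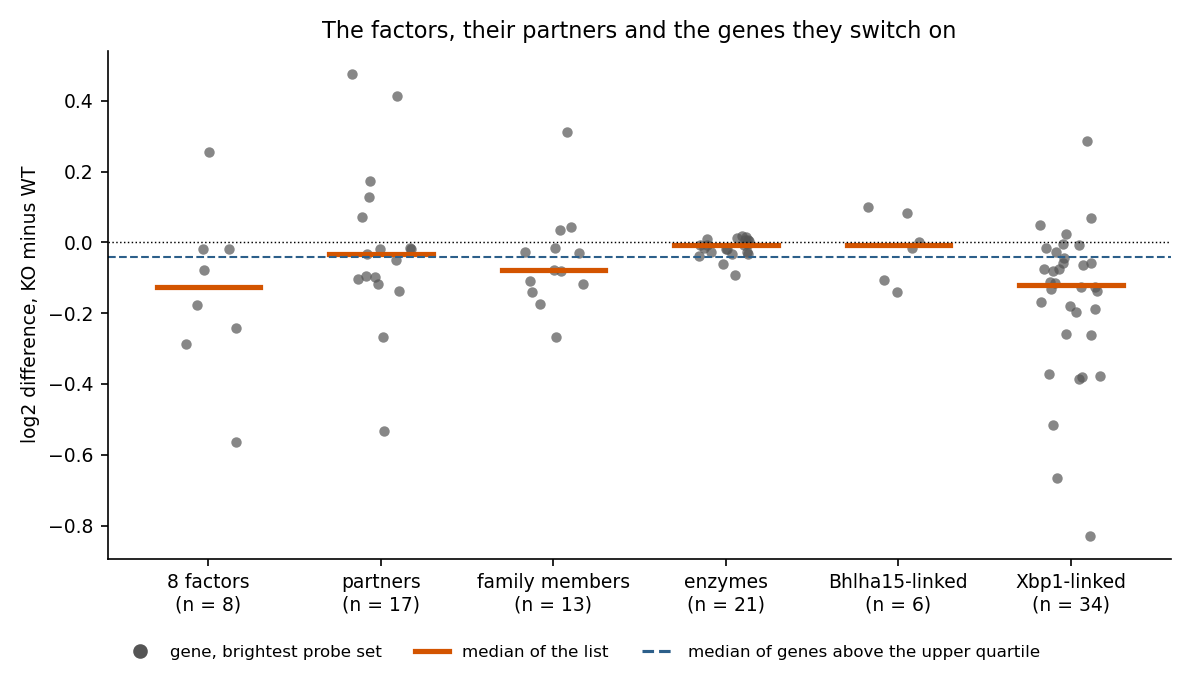
Log2 difference between KO and WT for each measured gene of the 6 lists, with the median of each list as an orange bar and the median of all genes above the upper quartile as a dashed line at -0.04. The Xbp1-linked genes reach down to -0.83 with a median of -0.12, and the enzyme genes stay between -0.09 and 0.02.

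The products of the acinar programme, the digestive enzymes and granule proteins driven by PTF1 and Nr5a2, were nearly level between genotypes. Of 27 listed, 21 were measured and the others were not analysed here. Differences ran from -0.09 to 0.02 with a median of -0.01, 14 lower and 7 higher, and with equal array medians all 21 were lower at a median of -0.03. By limma 0 passed and 0 had an unadjusted p under 0.05. Over all genes 0.132% passed, and 4.55% were higher and 5.58% lower at that unadjusted p. In 2 of 21, among them Cel at -0.04, every KO array lay below every WT array, against 7.56% of all genes. Of the 7141 genes above the upper quartile, where all 21 lie, 903 had this order. Prss3, a trypsinogen, measured 13.21, 12.78 and 12.52 in KO against 13.30, 12.60 and 12.88 in WT. Pnliprp2, a lipase-related protein, differed by -0.06 and its relative Pnliprp1 by -0.03. The mean over the arrays exceeded 14 for 14 of the 21, where the highest value of all was 14.57. Differences between such bright values can be compressed, which was not tested here, so that a change in these products could be hidden.

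Markers of other cells varied between arrays as well, and their part in the values above was not tested. In bulk tissue, fewer cells of a type and less RNA per cell cannot be told apart. Stellate cell and fibroblast markers were lower in KO in 10 of 10, with Postn at -0.82 and Col1a1 at -0.61, 0 passing and 5 at an unadjusted p under 0.05, against 5.58% of all genes. Of the genes above the upper quartile 61.7% were lower. The median of the list was -0.35, and -0.19 without KO replicate 1. Their summed level, in linear units of signal, ranged from 3239 to 4580 in KO and from 4777 to 6132 in WT. The duct list had 6 of 10 higher, and its sum ranged from 2622 to 2892 in KO and from 2424 to 2669 in WT. That sum rests mostly on the bright Krt8 and Krt18, so that it does not give a level of duct cells. Krt8 averaged 10.33 in KO and 10.29 in WT, and Krt18 9.45 in KO and 9.54 in WT. The mean log2 level, which weighs the 10 markers equally, ran from 5.762 to 5.977 in KO and from 5.789 to 5.799 in WT. By that measure the groups overlapped. Muc1, an apical mucin, measured 8.91, 9.23 and 9.29 in KO against 8.52, 8.63 and 8.51 in WT (difference 0.59, adjusted p 0.177), and Sox9, the duct and progenitor factor, 6.42, 5.80 and 6.13 in KO against 5.78, 5.39 and 5.62 in WT (difference 0.52, adjusted p 0.389). In both the groups did not overlap, and neither passed. Over all 18193 genes, 1250 had every KO array above every WT array, and 7.56% had every KO array below every WT array. Car2, a carbonic anhydrase on the same list, ran the other way, with 3.95, 3.53 and 4.02 in KO against 4.27, 4.26 and 4.09 in WT, again without overlap (difference -0.37, adjusted p 0.467), and the keratin gene Krt19 differed by -0.26. Of the islet markers 10 of 11 were lower, and their sum was 10903 to 12211 in KO and 12137 to 13167 in WT.

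KO replicate 1 was the array lowest in Ptf1a, Foxa2 and Bhlha15 and highest in Xbp1 and Nr5a2 by their brightest probe sets. It also had the lowest summed level of the markers of adjoining fat, plasma cells, stellate cells and fibroblasts, immune cells and islets. For the duct, endothelial, and liver and gut markers its sum was not the lowest. The fat sum was 851 to 1377 in KO and 1186 to 2126 in WT, with 5 of 6 markers lower in KO and Lep below the column medians on all arrays. Adipoq measured 2.26, 5.73 and 5.65 in KO and 5.12, 6.99 and 6.06 in WT. The plasma cell sum was 121 to 407 in KO and 208 to 833 in WT, and those cells also use Xbp1. Jchain measured 2.46, 4.80 and 6.14 in KO and 4.43, 7.49 and 5.89 in WT, and both Jchain and Ighm were lowest in KO replicate 1. Sdc1 and Prdm1 were highest on that same array, and a link of these markers to the Xbp1 values was not tested. Of the 6 plasma cell markers 3 were lower, and Prdm1 and Irf4 lay below the median of all values on all arrays. The immune sum was 195 to 373 in KO and 298 to 348 in WT, the endothelial sum 151 to 155 in KO and 159 in WT, and the liver and gut sum 997 to 1495 in KO and 1976 to 2189 in WT, most of it Ttr, which islets also make. Without KO replicate 1 the brightest Xbp1 probe set differed by 0.20.

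**Figure D4:**
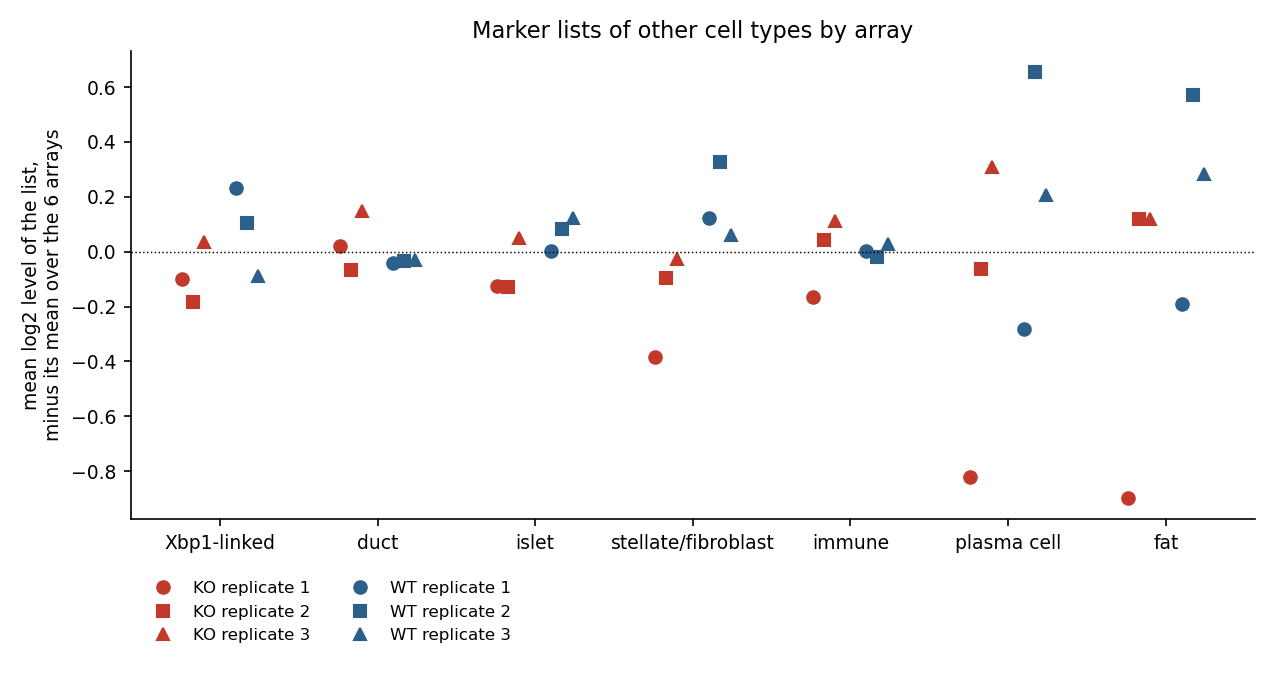
Mean log2 level of the Xbp1-linked list and of 6 marker lists on each array, with the mean over the 6 arrays subtracted, KO in red on the left of each list and WT in blue on the right. KO replicate 1 lies lowest in the fat, plasma cell, stellate and fibroblast, and immune lists.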

How the data were processed

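The authors deposited 1 log2 value per probe set and array, made with RMA in affy, per the submitters' processing notes. The sources used here do not state its version or settings. RMA equalises the distributions of the arrays, so a change shared by most genes is not visible, and the brightest probe sets can be compressed. The 6 columns were used as deposited. Of 45101 probe sets, 64 Affymetrix controls were left out. Of the 45101, 34958 had 1 gene symbol, 932 several and 9211 none, and symbols were updated by Entrez identifier through RefSeq (GRCm38.p6) for 34754. A gene was led by its brightest single-symbol probe set.

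Differences were fitted in limma 3.58.1 (lmFit, then eBayes; R 4.3.3), two-sided, with no covariates and 9.53 degrees of freedom, and adjusted by Benjamini and Hochberg over 45037 probe sets. Intervals are 95% from the moderated standard error. Lists are described by counts and medians, without a set test. The rule for names took Pebp1, the 8 factors, partners and family members with an unadjusted p under 0.05, the dimer partners, the 4 genes of smallest p of each target list and up to 2 of each marker list; other genes were named after their values were seen. The members and lists were chosen with earlier results of these data known. Promoter windows are RefSeq's. Alternatives were 2 other scalings, a filter on dim probe sets, a variance trend, array weights, a replicate block, Xist as a covariate, each array left out, the mean of a gene's probe sets and an adjusted p under 0.1. Arrays limit precision by their number. Figures were drawn with matplotlib 3.10.9.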

Additional observations from a re-analysis of the deposited data

How the results depend on the processing

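No probe set of the 8 factors passed under any alternative that was run, and neither did a gene of the partner, family, enzyme, Bhlha15-linked or Xbp1-linked lists. The differences of Ptf1a, Bhlha15, Gata6, Foxa2 and Xbp1 at the brightest probe set kept their sign in all 14 alternatives run for each. With each array left out in turn, Ptf1a ranged from -0.76 to -0.35, Bhlha15 from -0.27 to -0.11, Gata6 from -0.39 to -0.21, Foxa2 from -0.36 to -0.16 and Xbp1 from 0.20 to 0.30, and their adjusted p over all alternatives ran from 0.298 to 0.75, 0.448 to 0.904, 0.455 to 0.769, 0.424 to 0.819 and 0.265 to 0.738. With the mean of a gene's probe sets Bhlha15 was -0.088 and Gata6 -0.11. The other probe sets moved as well with an array left out, Nr5a2 1420410_at from -0.49 to -0.16, Nr5a2 1449706_s_at from -0.29 to -0.12 and the dim one of Rbpjl from -0.35 to -0.11. The 3 factors nearest to 0 changed sign. Nr5a2 was 0.049 with a second quantile normalization and 0.038 with the Xist covariate, and -0.072 to 0.018 with an array left out. Rbpjl was 0.0063 with the Xist covariate and -0.15 to 0.0072 with an array left out. Gata4 was 0.024 with the mean of its probe sets and -0.065 to 0.034 with an array left out. The cause was not tested. The dim probe set of Bhlha15 was 0.017 with the Xist covariate and -0.014 to 0.026 with an array left out. The number of factor probe sets at an unadjusted p under 0.05 was 1 to 7 with an array left out, 1 without WT replicate 1 and 3 without KO replicate 1. Over all probe sets 44 passed, 22 with the Xist covariate, 76 at an adjusted p under 0.1 and 16 to 41 with an array left out. Over genes 24 passed, 13 with the Xist covariate, 41 at an adjusted p under 0.1 and 10 to 27 with an array left out. The enzyme list had a median of -0.029 with equal array medians and -0.025 with the Xist covariate, against -0.01, and -0.019 to -0.0057 with an array left out. The family list was -0.031 with the mean of probe sets and -0.11 to -0.040 with an array left out, the partner list -0.056 to 0.041, and the Bhlha15-linked list -0.070 to 0.039, with 0.063 after a second quantile normalization and -0.058 with the Xist covariate. With the replicate number as a block 33 probe sets passed, and Ptf1a and Xbp1 had adjusted p of 0.548 and 0.577. Deviations of same-numbered arrays correlated at 0.19, -0.03 and -0.08, so the numbers were not taken as pairs, and of the KO arrays only replicate 1 correlated best with its own number. Values near 3 and near 14.57 can leave little room for a difference to show.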

Other observations

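Genes whose values ran most like those of each factor over the 6 arrays were picked by Pearson correlation with the brightest probe set, among 1839 genes above the upper quartile with an SD of at least 0.2. With 6 arrays and so many genes high values arise readily, and they are given as a description. The direction of the differences given with them follows largely from the pick, which used the same arrays. Nearest to Ptf1a were Utp20 (0.98), Zfp750 (0.98) and Spryd4 (0.97), and their differences between KO and WT were -0.30, -0.37 and -0.24. Nearest to Xbp1 were Ndrg1 (0.98), Clpx (0.98) and Litaf (0.97), with differences of 0.78, 0.62 and 0.46. Gata6 was followed by Hdac7 (0.98), Haus2 (0.97) and Agmo (0.97), and Foxa2 by Islr (1.00), Klhl13 (0.99) and Riox2 (0.98). Bhlha15 ran with Cct3 (0.99), Ranbp1 (0.98) and Slc30a9 (0.98), and Rbpjl with Dnajc11 (0.99), Ces2g (0.99) and Csnk2a2 (0.98). For Nr5a2 and Gata4, whose SD over the 6 arrays was 0.08 each, the closest were Cdc73 (0.97) and Stmn3 (0.99). None of the genes named here passed, the lowest adjusted p being 0.183 for Ndrg1.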
